A study of Drosophila melanogaster with 2 samples.

Results

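Promoter-flanking peaks are sites whose summit lies close to a transcription start site (TSS) without sitting on it. They were chosen by position alone, as the entries of the deposited dm6 list of optimal peaks whose summit is more than 500 bp and at most 1000 bp from the nearest annotated TSS of any gene other than a transposon. That list was thresholded by the irreproducible discovery rate (IDR), a measure of how consistently peaks rank between replicates. Single entries of the list can still rank far apart in the 2 replicates. Of its 6054 entries, 631 (10.4%) met the rule, 316 on the upstream side of the TSS and 315 on the downstream side. They are set against the 2848 entries at most 500 bp from a TSS, called near-TSS entries here, and the 2575 distal entries over 1000 bp from every TSS.

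The experiment was chromatin immunoprecipitation with sequencing on whole Drosophila melanogaster embryos of strain 1T-GFP, of mixed sex and 0 to 24 hours old, in which bcd carries a C-terminal eGFP tag. Antibody against GFP recovered the fusion protein from sonicated chromatin. The 2 libraries, biological replicates 1 and 3 of 1 transgenic line, form a single group with no second condition. The files give peak positions and signal values without read counts, and sequencing depth is therefore unknown. The promoter that drives the fusion gene was not given by the labels.

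Bicoid, the protein made from bcd, is a homeodomain transcription factor. The mother lays down bcd mRNA at the anterior pole, and the protein made from it switches on segmentation genes in the early embryo. In fly genes the core promoter lies within a short distance of the TSS, and many promoters of broadly used genes carry words bound by the factors DREF or M1BP. Regulatory DNA that is read from a distance, such as enhancers, often lies further upstream or in the first intron, and the band from 500 to 1000 bp lies between the core promoter and such DNA.

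The DNA under the strongest of these peaks is shown for 3 upstream and 3 downstream members, as the summit base with 100 bp on each side. They are among the strongest members whose window overlaps no annotated exon, and they are given to show what the word counts below were read from. Sequences run 5′ to 3′ on the plus strand of dm6, from the RefSeq Release 6 genome, and capitals mark any of the 10 words searched.
Lk6 upstream, chr3R:11760952-11761152: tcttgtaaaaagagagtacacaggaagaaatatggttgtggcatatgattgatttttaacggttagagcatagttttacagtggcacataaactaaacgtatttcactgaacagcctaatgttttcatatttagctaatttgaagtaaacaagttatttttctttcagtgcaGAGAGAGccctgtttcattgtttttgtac
sp3 upstream, chr3R:21520279-21520479: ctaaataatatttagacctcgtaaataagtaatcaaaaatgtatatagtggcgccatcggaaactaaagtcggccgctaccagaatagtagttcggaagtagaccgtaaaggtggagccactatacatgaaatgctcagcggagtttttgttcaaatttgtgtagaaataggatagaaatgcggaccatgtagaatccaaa
chif upstream, chr2L:16351166-16351366: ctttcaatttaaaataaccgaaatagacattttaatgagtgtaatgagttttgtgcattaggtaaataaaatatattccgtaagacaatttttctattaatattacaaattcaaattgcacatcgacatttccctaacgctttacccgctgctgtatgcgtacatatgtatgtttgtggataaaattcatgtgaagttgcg
CG9663 downstream, chr2L:3302082-3302282: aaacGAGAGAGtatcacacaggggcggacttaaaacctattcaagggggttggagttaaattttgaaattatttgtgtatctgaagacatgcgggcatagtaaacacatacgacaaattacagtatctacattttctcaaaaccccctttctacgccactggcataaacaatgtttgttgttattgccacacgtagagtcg
LPCAT downstream, chrX:9579199-9579399: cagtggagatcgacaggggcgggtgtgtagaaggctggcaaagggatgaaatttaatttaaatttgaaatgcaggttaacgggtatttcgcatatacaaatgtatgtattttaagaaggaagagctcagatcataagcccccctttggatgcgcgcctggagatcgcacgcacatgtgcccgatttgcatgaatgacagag
lncRNA:CR45643 downstream, chr3R:16224418-16224618: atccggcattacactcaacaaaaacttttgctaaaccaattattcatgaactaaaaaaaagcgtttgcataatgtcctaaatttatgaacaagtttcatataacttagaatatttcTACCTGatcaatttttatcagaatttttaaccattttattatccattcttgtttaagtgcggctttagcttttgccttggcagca
Words were counted on either strand. TAATCC is the word bound by Bicoid. TATCGATA is bound by DREF, and GGTCACAC by M1BP. TATAAA is that of the core promoter element TATA box. TAATTA is bound by homeodomains of the Antennapedia class. CAGGTA is bound by the early embryonic activator Zelda. GAGAGAG is bound by the protein known as GAGA factor. CACACACA is a simple dinucleotide repeat. CAGCTG is an E-box, the kind of word bound by basic helix-loop-helix proteins. GATAAG is bound by factors of the GATA family. Overlapping matches of different words were each counted. The windows beside Lk6 and CG9663 each hold GAGAGAG, the one beside lncRNA:CR45643 holds CAGGTA on the minus strand, and those beside sp3, chif and LPCAT hold none of the 10. A match is only a run of letters, not a shown binding site.

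The 10 strongest upstream members had signal values from 1202 to 2869, on the peak caller's own scale, and the 10 strongest downstream members from 1058 to 2318. At the top was the upstream member at X:12750808-12751672, with a signal of 2869 and rank 8 in the whole list. Its summit lay 551 bp upstream of lncRNA:CR44619, inside an exon of another noncoding gene, lncRNA:Vinr, and its best entry had a signal of 1453 in replicate 1 and 1347 in replicate 3. Another member lay on the other side of the same TSS, 501 bp downstream, with a signal of 1928 in the pooled list, 872 in replicate 1 and 1059 in replicate 3. Both members of this noncoding gene thus stood among the 46 strongest entries of each replicate.

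HmgZ, which encodes an HMG-box chromosomal protein, had the next upstream member, 560 bp from the TSS with a signal of 2796 and values of 1248 in replicate 1 and 1547 in replicate 3. Lk6, a kinase of the translation initiation factor eIF4E, had one 973 bp upstream of an internal TSS, in its own intron, with a signal of 2574 and values of 1222 and 1365 in replicates 1 and 3. The remaining upstream members of this rank lay near sp3 (signal 2016), chif, the gene of a Dbf4-related replication protein (1518), jp, the junctophilin gene (1422), lncRNA:CR45643 (1414), CG4496 (1331), Reph (1238) and asRNA:CR45804 (1202).

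On the downstream side CG9663 held the strongest member, in its own intron 948 bp from the TSS, with a signal of 2318 and values of 1242 in replicate 1 and 1062 in replicate 3. A second summit of the same entry lay 733 bp downstream, with a signal of 1058, and shares its replicate entries. Adf1, which encodes a Myb-related transcription factor, had a member 800 bp downstream with a signal of 2051, 956 in replicate 1 and 1107 in replicate 3. Others lay near lncRNA:CR46035, within osa, a gene of the SWI/SNF-type remodelling complex (signal 1654), LPCAT, a phospholipid acyltransferase gene (1382), lncRNA:CR45643 (1201), CG31635 (1183) and mub, a KH-domain RNA-binding protein gene (1093).

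Of these 20 members, 8 had another IDR summit within 500 bp of the nearest TSS itself, and in all 8 the member was the stronger of the sites. The 20 were picked by the same signal, so this outcome was largely set by the choice. The 8 are also not all separate, since both members at lncRNA:CR45643 had the same companion signal, 129. At chif the member had 1518 against 365 for the promoter summit, and at Adf1 it had 2051 against 163. In the whole set 68 of the 149 members with such a companion (45.6%) were stronger than it, 31 of 66 upstream (47.0%) and 37 of 83 downstream (44.6%). The nearest companion summit was a median of 769 bp from the member. Members with a companion had a median signal of 235 upstream and 240 downstream, and members without one 224 upstream and 223 downstream.

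The members were spread over many genes. They belonged to 602 TSS positions, 28 of which had more than 1 member, and 12 had members on both sides. Those 12 included the RTK signalling genes aop and pnt, which encode ETS transcription factors, and Raf, which encodes a protein kinase, together with loco, Moe, Tlk, sick and betaTub97EF. At Raf the upstream member had a signal of 146 and the downstream member, in an untranslated region of the gene, 870. At aop the order was the other way, with 409 upstream and 212 downstream, and at pnt they were close, with 228 upstream and 213 downstream. These genes were named after their values were seen.

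The 5 lists of developmental genes, chosen with earlier results of these data known, were nearest to 8 members, 13 near-TSS entries and 52 distal entries. Members were thus 11.0% of these 73 entries, close to their 10.4% of the whole list. Of 23 Bicoid targets, 3 had a member nearest to them, and all were weak. They were nub, a POU factor gene (574 bp upstream, signal 189), cnc, a bZIP factor gene of the head (523 bp, signal 169), and bowl, of the odd-skipped family (618 bp, signal 151). The same 23 genes were nearest to 7 near-TSS and 21 distal entries. Among 13 dorsoventral genes, brk, the repressor of Dpp targets, had 2 members from 1 entry, 748 and 540 bp upstream with signals of 971 and 430, and ush, which encodes a GATA cofactor, had 2, 562 and 525 bp upstream with signals of 358 and 200. E(spl)m2-BFM, a Bearded-family gene under Notch control, had 1, 509 bp upstream with a signal of 276. None of the 8 homeotic or 10 segment polarity genes was nearest to a member. The homeotic genes were nearest to only 1 near-TSS and 8 distal entries, and the segment polarity genes to 2 and 8. With so few entries, a count of 0 is close to what the 10.4% share of the whole list would give. The 92 ribosomal protein genes were nearest to 0 members, against 79 near-TSS entries and 2 distal entries. All 8 members from these lists were on the upstream side, where 316 of all 631 members (50.1%) lay. The 8 are not all separate sites, since the 2 at brk come from 1 entry, and their side was not tested.

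Where the summits lay differed by side, as the side itself largely sets. On the upstream side 129 of 316 (40.8%, Wilson 95% interval 35.5 to 46.3) were intergenic, 130 (41.1%) were in an intron of the nearest gene, which has a further TSS upstream of the one measured, and 43 (13.6%) were in an intron of another gene. On the downstream side 234 of 315 (74.3%, 69.2 to 78.8) were in an intron of the nearest gene, 24 (7.62%) were intergenic and 21 (6.67%) were in exons of noncoding genes. Coding exons held 2 upstream and 2 downstream summits. No test was made of these locations. Intervals here and below cover counting error only.

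**Figure D1:**
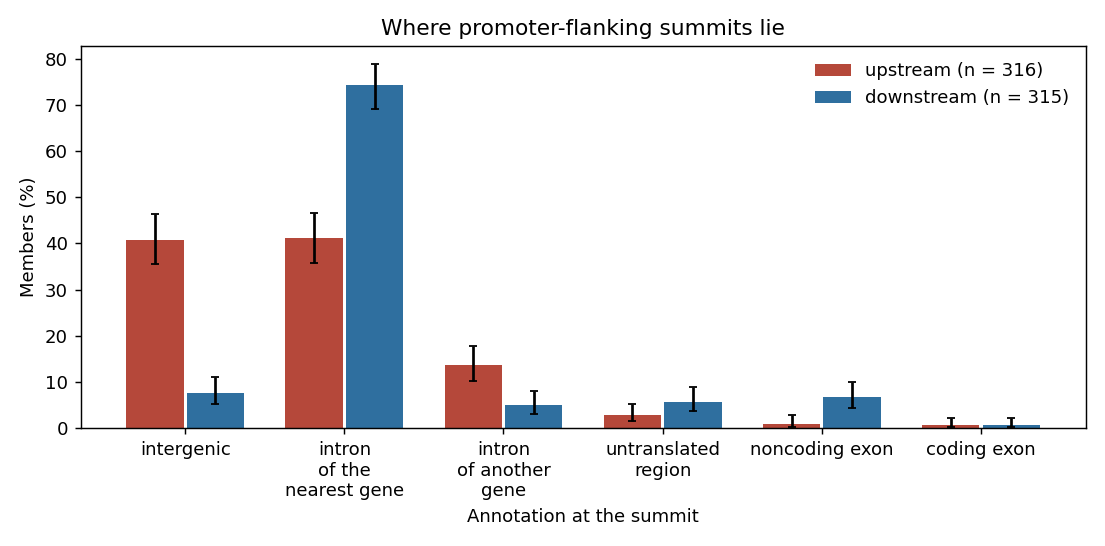
Share of promoter-flanking members (percent) by the annotation at the summit, upstream (left bars) and downstream (right bars), with Wilson 95% intervals. Intergenic sequence holds 40.8% of upstream and 7.62% of downstream members, and introns of the nearest gene hold 41.1% and 74.3%.

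The nearest TSS was often an internal one. It was the 5′ end of an annotated gene for 59.2% of upstream members and 63.8% of downstream members. Over all members this share was 61.5% (57.6 to 65.2), against 76.5% (74.9 to 78.0) of near-TSS and 69.8% (68.0 to 71.5) of distal entries. The nearest gene was not protein-coding for 103 members (16.3%), against 206 near-TSS entries (7.23%), a difference of 9.09 percentage points (Fisher's exact test, adjusted p = 5.08e-11 over 15 measures). For distal entries the share was 19.5% (-3.17 points for members, Fisher's exact test, adjusted p = 0.174), and for the whole list it was 13.4%. By side, it was 13.6% of upstream members against 5.18% of upstream near-TSS entries, and 19.0% of downstream members against 17.3% of downstream near-TSS entries. With TSSs of protein-coding genes alone this measure is 0 by construction.

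Upstream and downstream members were nearly equal in number, although the downstream side of the band holds more DNA. The band covered 5.46 Mb upstream and 8.07 Mb downstream, so the density was 57.9 summits per Mb upstream (exact Poisson 95% interval 51.7 to 64.6) and 39.0 downstream (34.8 to 43.6). The upstream share of 50.1% was above the 40.3% of bases that lie upstream (exact binomial test, two-sided, p = 8.47e-07). Outside coding exons the band covered 4.58 Mb upstream and 4.53 Mb downstream, and the densities were 68.6 (61.2 to 76.6) and 69.1 (61.7 to 77.2) per Mb, with an upstream share of 50.1% against 50.3% of bases (exact binomial p = 0.936). With the 5′ end of each gene as its only TSS, 216 members were upstream and 330 downstream, an upstream share of 39.6% against 40.2% of bases (exact binomial p = 0.76). Peaks are not replicates, so these p-values compare sites within 1 list.

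Density changed with distance on the upstream side more than on the downstream side. From 500 to 600 bp it was 89.5 per Mb upstream (73.6 to 107.9), and from 900 to 1000 bp it was 46.7 (34.1 to 62.5). Downstream the same bins had 40.0 (31.2 to 50.6) and 35.8 (26.8 to 46.8). The upstream values continued a slope that began with 420 per Mb in the first 100 bp before the TSS. On the downstream side the first 100 bp had 114 per Mb, the bin from 200 to 300 bp had 15.8 (10.8 to 22.5), the lowest of the bins up to 1500 bp on either side, and the bin from 600 to 700 bp had 42.3 (33.0 to 53.3). The low downstream bin stood out also outside coding exons, with 27.8 per Mb (18.9 to 39.5) against 75.6 (59.0 to 95.6) from 600 to 700 bp. The median distance of members from the TSS was 660.5 bp upstream and 724 bp downstream. The difference in slope was not tested.

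**Figure D2:**
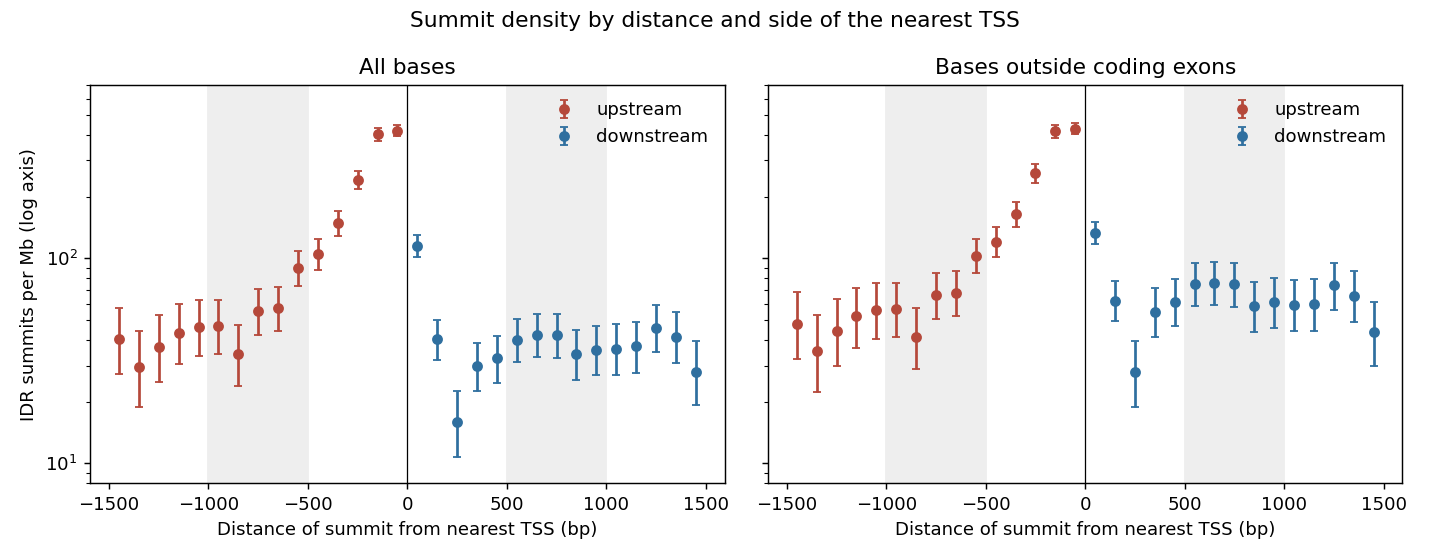
IDR summits per Mb (log axis) in 100 bp bins of distance from the nearest TSS, upstream at left (negative distances) and downstream at right, over all bases and over bases outside coding exons, with exact Poisson 95% intervals. Grey bands mark 500 to 1000 bp. Over all bases the upstream bins of the band lie between 34.2 and 89.5 per Mb, and the downstream bins between 34.2 and 42.3.

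The limits of the band were set by distance and not by signal. The 15 members within 10 bp beyond the 500 bp limit had signals from 146 to 1928 with a median of 249, and the 24 entries within 10 bp on the near side of it had a median of 243. Of the 15, 6 were upstream, and of the 24, 19 were. At the outer limit the 9 members in the last 10 bp had a median of 250, and the 5 entries in the next 10 bp had a median of 200.9. These values rest on few entries and were not tested. Across members, signal and distance had a Spearman rho of -0.06 (n = 631 sites that share the same libraries).

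Upstream and downstream members did not pass the test of difference in any of 16 measures. Signal values had a median of 225 upstream (range 125 to 2869) and 228 downstream (125 to 2318). Signals above the median of the whole list were found in 51.6% of upstream and 52.4% of downstream members, a difference of -0.8 percentage points (95% interval -8.54 to 6.96). The share with a companion summit at the TSS was 20.9% upstream and 26.3% downstream (difference -5.46 points, interval -12.0 to 1.17, Fisher's exact test, adjusted p = 0.447). The nearest gene was not protein-coding for 13.6% of upstream and 19.0% of downstream members (-5.44 points, -11.2 to 0.343, Fisher's exact test, adjusted p = 0.43). By Fisher's exact test 0 of the 16 measures passed with adjustment and 0 had an unadjusted p under 0.05, but the intervals leave room for differences of several points. With the band moved to 400 to 800 bp, the share near noncoding genes differed (-13.6 points, Fisher's exact test, adjusted p = 0.000202), while with gene 5′ ends its difference was 5.30 points and did not pass (adjusted p = 0.538). The companion difference was 6.82 points in the band from 400 to 800 bp and did not pass (Fisher's exact test, adjusted p = 0.367).

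None of the 10 words was found in 121 upstream and 98 downstream members. TAATCC, the Bicoid word, occurred in 23 upstream (7.28%) and 25 downstream (7.94%) windows, and TATAAA in 33.2% and 35.6%. CAGCTG occurred in 4.75% of upstream and 8.57% of downstream windows (difference -3.82 points, interval -7.88 to 0.107, Fisher's exact test, adjusted p = 0.43), and CACACACA in 3.80% and 6.98% (-3.19 points, -6.92 to 0.394, adjusted p = 0.43). The A and T content of the windows was 64.1% ± 7.07 upstream and 64.3% ± 7.21 downstream (SD over members). That was above the whole band outside coding exons, where windows centred on every 100th base had 60.9% ± 8.49 upstream and 60.6% ± 8.26 downstream. It was not particular to members, since near-TSS summits had 63.6% and distal summits 64.7%. The share of windows above the list's median A and T content passed against neither class. The differences were 2.86 points from near-TSS entries (Fisher's exact test, adjusted p = 0.299) and -3.26 points from distal entries (adjusted p = 0.268).

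The Bicoid word was about as common in members as in the whole band outside coding exons. TAATCC was present in 48 of 631 members (7.61%, 5.79 to 9.94) and in 7.51% of 90989 windows of the band outside coding exons. In windows 1000 bp further from the TSS it was in 6.65% upstream and 5.08% downstream, against 7.28% and 7.94% at summits. On neither side did TAATCC pass the exact sign test. Near-TSS entries had it in 7.37% (difference 0.233 points, interval -1.85 to 2.74, Fisher's exact test, adjusted p = 0.907) and distal entries in 5.83% (1.78 points, -0.283 to 4.26, adjusted p = 0.208). In windows of 200 bp on each side of the summit the difference from distal entries passed the test (3.96 points, Fisher's exact test, adjusted p = 0.0145). The strongest members with TAATCC, named after their values were seen, lay near CG4496 (signal 1331), Raf (870) and tou, a chromatin remodelling gene (819). GATAAG occurred in 11.9% of members and 9.98% of band windows, CAGGTA in 3.49% and 4.26%, and TAATTA in 16.5% and 15.7%. TATAAA occurred in 34.4% and 27.5%, and its share at near-TSS summits, 35.3%, and at distal summits, 35.5%, was close to that of members.

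Against windows 1000 bp further from the TSS, 0 of 20 tests of words (10 words on 2 sides) passed by the exact sign test, and 2 had an unadjusted p under 0.05. The first of these was TATAAA on the downstream side, with 35.6% at summits and 25.7% in the outer flank (exact sign test, adjusted p = 0.181), and the second CAGCTG on the upstream side, with 4.75% and 9.49% (adjusted p = 0.346). TATAAA passed under several other settings, among them against the mirror position on the other side of the same TSS, where it was 12.3 points higher at upstream summits and 14.3 points higher at downstream summits (exact sign test, adjusted p = 0.00396 and 0.00301). Without replicate 3 it passed on the upstream side (13.0 points, exact sign test, adjusted p = 0.02), and CACACACA passed on the downstream side (5.63 points, adjusted p = 0.021). A and T content was higher at summits than in the band as a whole, as given above, and its part in the TATAAA shares was not tested.

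The words of DREF and M1BP were rare in members, as in the whole band outside coding exons. These were 2 of the 8 measures, of 15, in which members differed from near-TSS entries. TATCGATA occurred in 1 of 631 members (0.158%, 0.028 to 0.892) and in 208 of 2848 near-TSS entries (7.30%), a difference of -7.14 points (interval -8.17 to -5.98, Fisher's exact test, adjusted p = 1.87e-16). GGTCACAC occurred in 1 of 631 members and in 145 near-TSS entries (5.09%), a difference of -4.93 points (-5.81 to -3.88, Fisher's exact test, adjusted p = 2.98e-11). The single members were near Stt3A, which encodes a subunit of the oligosaccharyltransferase complex (TATCGATA, signal 427), and Hgsnat, a lysosomal acetyltransferase gene (GGTCACAC, signal 467). Both were on the downstream side, so upstream members had 0 of 316 for either word, which allows a share of up to 0.949% when a count of 0 is taken to allow 3 counts, and up to 1.20% by the Wilson interval. Windows of the band outside coding exons had TATCGATA in 0.48% and GGTCACAC in 0.265%, and distal entries had each in 0.427%. Both band values lie within the interval of members. All DNA within 500 bp of TSSs was not searched, so the difference from near-TSS entries cannot be told apart from position alone. The words were concentrated within 250 bp of the TSS. From 250 to 500 bp, TATCGATA was in 1.17% of upstream and 0.8% of downstream windows, and GGTCACAC in 1.56% and 0%.

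**Figure D3:**
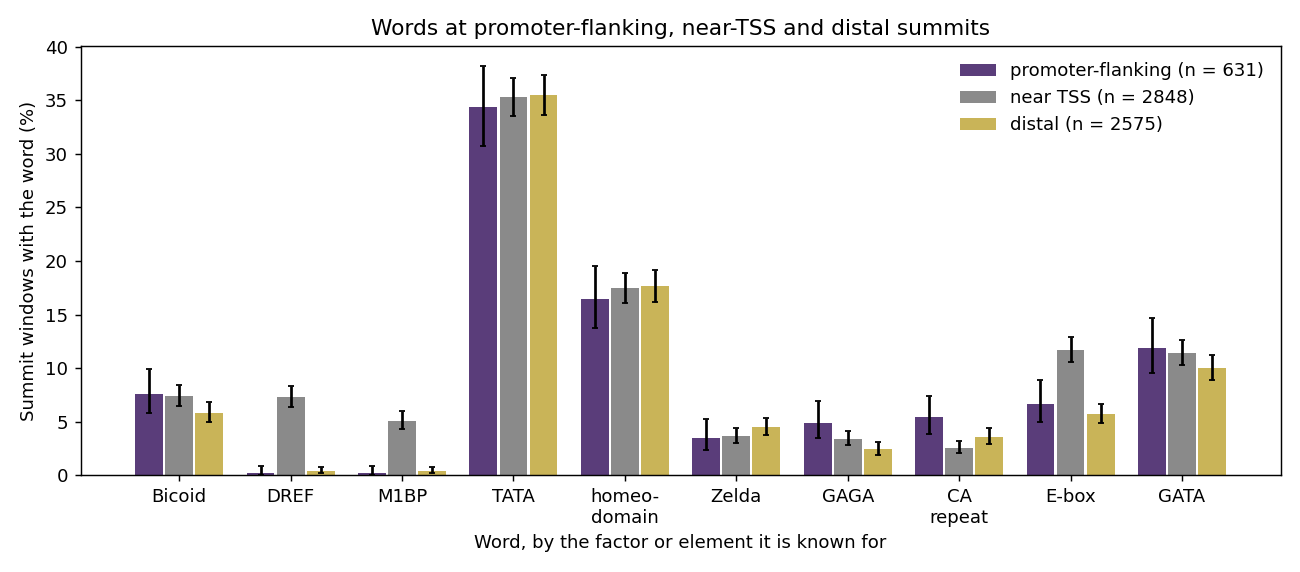
Share of summit windows (percent) with each of 10 words, named by the factor or element, in promoter-flanking members, near-TSS entries and distal entries, with Wilson 95% intervals. The DREF and M1BP words are in 0.158% of members each, against 7.30% and 5.09% of near-TSS entries.

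Other words differed less. CAGCTG was rarer in members than in near-TSS entries, 6.66% against 11.7% (-5.04 points, Fisher's exact test, adjusted p = 0.000308), and CACACACA was more frequent, 5.39% against 2.56% (2.83 points, adjusted p = 0.00107). GAGAGAG occurred in 4.91% of members and 2.45% of distal entries (2.47 points, interval 0.886 to 4.51, Fisher's exact test, adjusted p = 0.00814), with 3.41% of near-TSS entries between them. In windows of the whole band outside coding exons, CAGCTG was in 7.2%, CACACACA in 4.8% and GAGAGAG in 3.1%. For CAGCTG and CACACACA members were thus closer to the band than to near-TSS entries. Differences from the band were not tested. Among the 3027 strongest entries CAGCTG no longer passed (-1.99 points, Fisher's exact test, adjusted p = 0.438), nor did GAGAGAG (2.82 points, adjusted p = 0.114). GAGAGAG also missed the threshold with gene 5′ ends (1.32 points), in the band from 400 to 800 bp (1.41) and in windows of 50 bp on each side (0.494), where CACACACA missed it as well (1.10). Without replicate 1 or without replicate 3, CACACACA differed also between members and distal entries (2.78 and 2.65 points, Fisher's exact test, adjusted p = 0.00541 and 0.033). Without replicate 3 the share of windows above the median A and T content differed from near-TSS entries (5.03 points, Fisher's exact test, adjusted p = 0.042).

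The median signal was 227 in members, 254 in near-TSS entries and 196 in distal entries. A signal above the median of the list was found in 52.0% of members, against 57.7% of near-TSS entries (-5.71 points, Fisher's exact test, adjusted p = 0.0187) and 41.0% of distal entries (11.0 points, adjusted p = 5.8e-06). The first of these differences missed the threshold with gene 5′ ends (-4.54 points, Fisher's exact test, adjusted p = 0.0925) and in the band from 400 to 800 bp (-2.85 points, adjusted p = 0.33). By side, a signal above the median was found in 51.6% of upstream members against 59.2% of upstream near-TSS entries, and in 52.4% of downstream members against 50.7% of downstream near-TSS entries. The upstream side holds 2356 of the near-TSS entries. Within the 3027 strongest entries the difference from distal entries, measured at that list's own median, was -1.33 points (Fisher's exact test, adjusted p = 0.878).

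Of 631 members, 442 (70.0%, 66.4 to 73.5) overlapped the 6054 strongest entries of each replicate, where 69.2% of all IDR entries did. The share was 77.5% in near-TSS entries (-7.48 points for members, Fisher's exact test, adjusted p = 0.000308) and 59.8% in distal entries (10.2 points, adjusted p = 9.48e-06). By side, it was 69.9% of upstream members against 78.9% of upstream near-TSS entries, and 70.2% of downstream members against 71.1% of downstream near-TSS entries, differences that were not tested. Among the 3027 strongest entries neither difference passed (-1.47 and 2.11 points, Fisher's exact test, adjusted p = 0.403 and 0.505). In the relaxed lists, 611 members had an entry in both replicates, 13 had none in replicate 1, 8 had none in replicate 3, and 1 of these, the summit 653 bp downstream of lncRNA:CR45737, had none in either. Signals in the replicates had a Spearman rho of 0.61 over 308 upstream members and 0.54 over 303 downstream members, which were selected on the pooled signal and share the same 2 libraries.

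**Figure D4:**
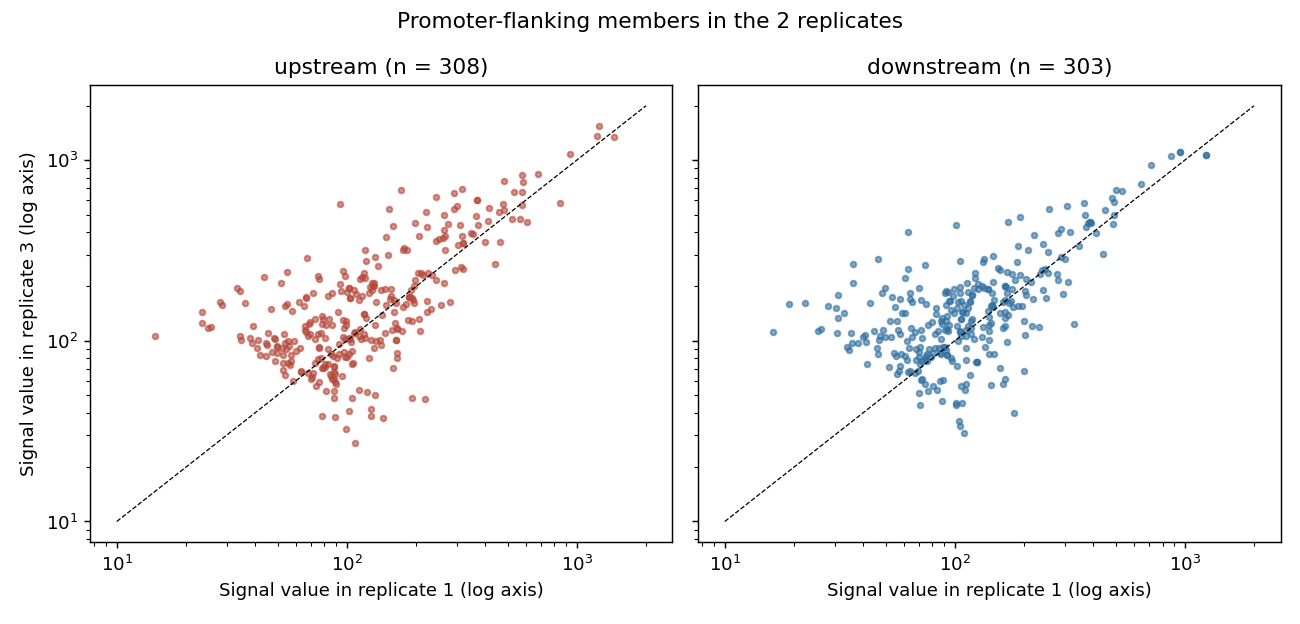
Signal value of the strongest overlapping entry in replicate 1 (x axis) and replicate 3 (y axis), both log axes, for the 308 upstream and 303 downstream members with an entry in both relaxed lists; the dashed line marks equal values. The clouds of the 2 sides cover the same range, and 48.7% of upstream and 46.5% of downstream members rank higher in replicate 1.

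The share of members ranked higher in replicate 1 was near that of the whole list, below that of near-TSS entries and above that of distal entries. Of the 611 members with both entries, 291 (47.6%, 43.7 to 51.6) ranked higher in replicate 1, where 51.1% of all IDR entries did. For near-TSS entries the share was 65.8% (-18.2 points for members, interval -22.5 to -13.8, Fisher's exact test, adjusted p = 9.48e-16), and for distal entries 35.8% (11.8 points, 7.44 to 16.2, adjusted p = 1.64e-06). By distance, the share was 70.5% within 250 bp upstream and 72.4% within 250 bp downstream. It was 49.9% from 250 to 500 bp upstream and 43.5% from 250 to 500 bp downstream, near the values of members. From 500 to 750 bp it was 48.8% upstream and 48.6% downstream, and from 750 to 1000 bp it was 48.6% and 43.8%. Library depth is unknown, and its part in this preference was not tested. The p-values compare sites that share the same 2 libraries.

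**Figure D5:**
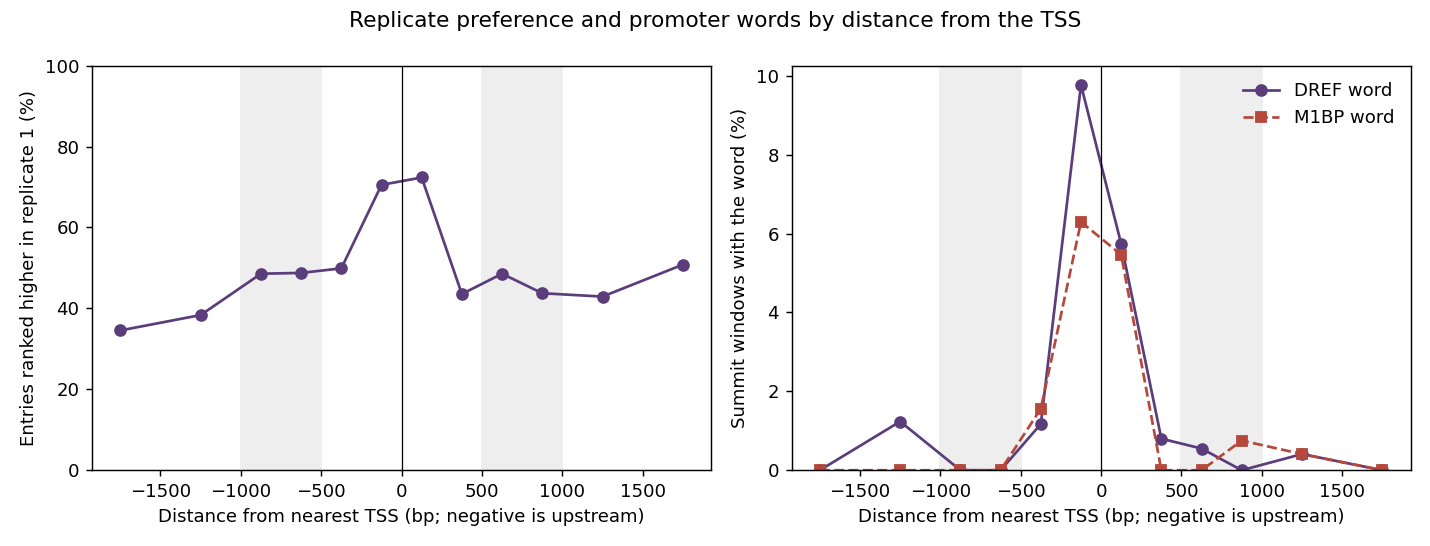
Share of IDR entries ranked higher in replicate 1 (left, percent of entries with an entry in both relaxed lists) and share of summit windows with the DREF or M1BP word (right, percent), by distance from the nearest TSS, upstream negative; grey bands mark 500 to 1000 bp. The replicate share is over 70% only in the bins within 250 bp of the TSS, and the words peak in the same bins, at 9.77% and 6.29% upstream.

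The major arms contributed members in similar proportion. They made up 11.2% of the entries on 2L, 10.6% on 3L, 10.7% on 3R, 10.9% on X and 8.60% on 2R, and chromosome 4 held 2 of its 12 entries.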

How the data were processed

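Chromatin immunoprecipitation libraries of 2 replicates were compared through the deposited dm6 peak lists. Per the deposited file descriptions, the authors made a relaxed list of 30000 entries for each replicate and for both pooled, and the IDR-thresholded list from these. Each entry has a signal value, whose scale the deposited files do not define, and a summit offset (another number the authors deposited, in bases). The sources used here give neither peak caller nor aligner. Depth is unknown, so no floor in reads can be given. The dm3 lists and the control experiment were not used here.

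TSSs were the starts of all transcripts in Ensembl release 115 (BDGP6, the same Release 6 assembly as dm6), transposons left out. Side follows the strand of the nearest TSS. Words were sought on both strands within 100 bp of the summit. The measures were 6 site properties and 10 words: signal above the list's median, a summit within 500 bp of the TSS, higher rank in replicate 1, presence among the 6054 strongest of both replicates (1 bp overlap), a nearest TSS that is not protein-coding, A+T above the list's median. Shares were compared by Fisher's exact test, two-sided, with Benjamini-Hochberg adjustment over 16 measures (15 against other classes) and a threshold of 0.05. Intervals of differences are Newcombe's, from Wilson limits. Words in flanks were compared by the exact sign test, adjusted over 20 tests. Python 3.11.15 with scipy 1.17.1 was used. The side assignment was checked on a small made-up example, and Fisher's exact test on simulated data. The exact sign and binomial tests were not checked in this way.

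The named genes are those nearest to the 10 strongest members on each side and all members nearest to 6 gene lists; other names were chosen after values were seen, as stated, and 1 named gene is not reported here. Members, lists and words were chosen with earlier results of these data known. Replicates come from separate biosamples per the labels. Alternatives changed the TSS set, the band, the entries, the windows, the overlap and the replicates, where leaving out a replicate means using the 6054 strongest entries of the other's relaxed list.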

Additional observations from a re-analysis of the deposited data

How the results depend on the processing

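The upstream share, 50.1% in the main analysis, exceeded the share of bases also under several alternatives. It was 52.5% with protein-coding TSSs, 46.1% with a band to 1500 bp and 58.3% with a band from 400 to 800 bp. With 1 entry per interval it was 49.8%, and among the 3027 strongest entries 49.7%. It was 49.8% without replicate 1 and 48.3% without replicate 3. It did not exceed the share of bases with gene 5′ ends (39.6% against 40.2%) or with bases outside coding exons (50.1% against 50.3%), where the sign turned. No word differed between the sides under any alternative run. The number of word tests passing between summit and flank was 0 in the main analysis, 1 with gene 5′ ends, 2 with the band to 1500 bp, 1 with windows of 50 bp on each side, 3 with windows of 200 bp on each side, 4 with the inner flank, 2 with the mirror position, and 0 to 2 when a replicate was left out. The inner flank lay 1000 bp from the summit towards the TSS, and so within 500 bp of the TSS on its other side. Against the inner flank, GGTCACAC was 3.49 points rarer at downstream summits (-3.49), where the main difference, from 1 window against 0, was positive. For downstream members this flank lies just upstream of the TSS, so it is another comparison than the main one. Members differed from distal entries in 4 of 15 measures, and in 1 among the 3027 strongest, where the signal measure turned to -1.33 points. Of the main results recomputed under alternatives, 57 kept their call or stayed near the main count, 8 counts moved further and 2 results turned. Staying near did not mean an equal count. The number of measures differing between members and near-TSS entries was 8 in the main analysis. It was 6 among the 3027 strongest entries and 9 with the band to 1500 bp, and both are among the 57. Of the single measures, 611 kept their call, 23 gained one, 11 lost it and 2 turned. No paired analysis was possible because the design has 1 group. The lists hold no counts, so what depth limits cannot be stated, and the 631 members bound the precision of shares.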
